A study of Homo sapiens with 21 samples.

Results

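LIF, IL6, IL11 and IL24, together with the receptor chains IL6ST (gp130), LIFR and OSMR, were followed through the response of MCF10A cells to epidermal growth factor (EGF). The 7 genes were found as the probesets that the platform annotation pairs with 1 of these symbols and no other, which gave 123 of 354600 such probesets, and 7 of the 19426 genes that they name. After a filter on dim probesets, 6 of the 7 genes could be tested among 16614 genes, and IL6 could not. MCF10A is an immortalised, non-tumorigenic line of human mammary epithelial cells. All groups shared the same preparation, 24 h without EGF and then 24 h of starvation in 1% horse serum, and the groups were untreated cells at 0 min and cells given EGF at 20 ng/ml for 20, 40, 60, 120, 240 or 480 min, with 3 arrays at each time and 21 in all. No untreated arrays of the later times were used, so EGF, handling and time in culture cannot be told apart. The labels call the arrays biological triplicates and name no separate experiments, so the p-values measure the spread between these arrays, whose number limits the precision.

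IL6, IL11 and LIF are secreted cytokines that signal through IL6ST, the signal-transducing chain shared by this family. IL6 and IL11 each bind a private receptor first and then bring IL6ST together, LIF joins LIFR to IL6ST, and OSMR pairs with IL6ST to form a receptor for oncostatin M. These receptors activate JAK kinases and, above all, the transcription factor STAT3, whose target SOCS3 in turn blocks the receptor. In the mouse mammary gland, LIF is known as the activator of STAT3 at the start of involution after weaning. IL24 is a cytokine of the IL10 family and uses other receptors, built from IL20RB with IL20RA or IL22RA1, which also act through JAK kinases and STAT3.

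The promoters of IL24, OSMR and IL6ST, each called at several times, are shown beside that of IL11, whose gene value was called at no time, so that the DNA just upstream of each can be set against its response. RefSeq promoter sequences of GRCh38.p14 matched 6 of the 7 members, and LIF was not among them. Each window holds the 250 bases before the gene's start, printed in the direction of the gene: chr1:206897193-206897442 on the plus strand for IL24, chr5:38845762-38846011 on the plus strand for OSMR, chr5:55994964-55995213 on the minus strand for IL6ST and chr19:55370464-55370713 on the minus strand for IL11. Capitals mark every match on either strand to the motifs searched, and overlapping matches run together.
IL24: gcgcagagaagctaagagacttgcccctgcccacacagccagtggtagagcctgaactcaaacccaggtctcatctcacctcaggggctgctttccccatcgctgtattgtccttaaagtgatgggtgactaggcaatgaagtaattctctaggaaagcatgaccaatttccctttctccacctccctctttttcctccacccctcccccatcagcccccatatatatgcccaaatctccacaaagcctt
OSMR: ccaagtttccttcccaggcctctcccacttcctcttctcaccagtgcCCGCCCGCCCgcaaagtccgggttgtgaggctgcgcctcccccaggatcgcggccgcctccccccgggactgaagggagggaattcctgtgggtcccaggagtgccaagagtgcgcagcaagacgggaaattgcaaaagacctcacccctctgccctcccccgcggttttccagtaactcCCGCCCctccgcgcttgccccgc
IL6ST: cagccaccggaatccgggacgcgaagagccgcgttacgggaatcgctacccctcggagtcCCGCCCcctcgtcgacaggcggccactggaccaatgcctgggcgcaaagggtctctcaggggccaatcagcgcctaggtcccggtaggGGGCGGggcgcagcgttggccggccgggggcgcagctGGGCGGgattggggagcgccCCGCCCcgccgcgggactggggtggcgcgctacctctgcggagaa
IL11: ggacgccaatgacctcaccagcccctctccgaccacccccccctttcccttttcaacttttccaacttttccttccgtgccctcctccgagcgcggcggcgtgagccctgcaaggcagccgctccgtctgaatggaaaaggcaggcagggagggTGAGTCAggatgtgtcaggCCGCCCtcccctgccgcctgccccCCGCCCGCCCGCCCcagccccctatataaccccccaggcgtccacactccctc
The motif of AP-1 was searched as TGACTCA, that of CRE as TGACGTCA, that of EGR as GCGNGGGCG, the GC box as GGGCGG, which can overlap an EGR match, and that of STAT factors as TTCNNNGAA. The element that positions the polymerase was searched as TATAAA, and the CArG box and NF-kB motifs were searched too. The IL24 window held no match to any of them. The OSMR window held 3 GC boxes, at 203, 199 and 23 bases upstream, and the IL6ST window held 4, at 190, 102, 65 and 45 bases upstream. IL11 had an AP-1 match 96 bases upstream and 4 GC boxes, at 77, 53, 49 and 45 bases upstream. LIFR has 3 promoter windows in the table and IL6 has 1, and these are described without their letters. A STAT match lay 165 bases upstream in 1 LIFR window and 182 in another, which also held TATAAA at 202 and 200. The remaining LIFR window held EGR matches at 141, 117 and 16 and GC boxes at 99, 75, 64 and 17 bases upstream. The IL6 window held an NF-kB match 73 bases upstream. Among all 35116 promoter windows of that length, 4.2% held an AP-1 match and 42.6% a GC box, against 6.57% for STAT, 8.41% for EGR, 1.65% for CRE, 10.7% for TATAAA, 1.16% for the CArG box and 5.21% for NF-kB. A match is a description of these letters only.

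The arrays were alike in their overall signal. Their median intensities lay between 20.4 and 20.6, and replicate arrays of a time correlated across genes at between 0.944 and 0.988. Of the basal mammary markers, 9 of 10 had probesets and all 9 lay above the filter value, from EGFR at 9.08 to KRT5 at 12.44 on the log2(intensity + 16) scale. The defining leukocyte gene PTPRC, at 4.47, and the endothelial gene PECAM1, at 4.73, lay below it, as did the fibroblast gene LUM at 4.51. Of the fibroblast list 6 of 10 genes were above the filter value, with COL1A1 highest at 7.20, of the leukocyte list 4 of 8 with CSF1R highest at 5.98, and of the endothelial list 2 of 8 with CLDN5 highest at 6.28. Of the luminal list 7 of 10 were above it, with KRT8 highest at 9.93 and PGR, at 4.55, the lowest of the list and below it. The mean level of each list over the 7 times ran from 10.54 to 10.79 for basal, 6.36 to 6.49 for luminal, 5.46 to 5.59 for fibroblast, 5.17 to 5.29 for leukocyte and 5.05 to 5.19 for endothelial markers. Array values come from bulk RNA, in which fewer cells of a type and less RNA per cell cannot be told apart.

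LIF rose at every time after EGF, was the one member called at 20 min, and reached a higher change than any other member (3.08 at 60 min). A gene's value is the median log2(intensity + 16) over its probesets that passed the filter, which stood at 5.18 on this scale, or 20.2 intensity units. A gene is called at an adjusted p under 0.05 in the limma model fitted to all genes, and the error after ± is limma's standard error of a log2 change between 3 and 3 arrays. The 3 arrays of each time gave LIF values of 5.30, 5.14 and 5.05 at 0 min, 5.54, 6.12 and 6.09 at 20 min, and 7.67, 7.43 and 7.81 at 40 min. They gave 8.08, 8.38 and 8.27 at 60 min, 7.85, 7.74 and 8.27 at 120 min, 7.04, 7.21 and 7.14 at 240 min, and 6.45, 6.09 and 6.19 at 480 min. All 3 arrays of every EGF time lay above all 3 arrays of 0 min, where LIF stood close to the filter value and so near the median of all probesets.

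Against 0 min, LIF was higher by 0.76 ± 0.16 at 20 min (adjusted p = 0.0175, limma), by 2.48 at 40 min (3.53e-10), by 3.08 at 60 min (7.38e-12), by 2.79 at 120 min (4.4e-11), by 1.97 at 240 min (9.85e-09) and by 1.08 at 480 min (3.18e-05), each with the same standard error. On this scale the change was 8.47-fold at 60 min, with a 95% interval of 2.75 to 3.41 in log2 units. The size depended on the pseudocount, and the LIF change at 60 min was 2.07 with a pseudocount of 64 and 3.80 with a pseudocount of 1. It ranked 7 from the highest of 16614 genes at 60 min and 6 at 120 min, against 113 at 20 min and 252 at 480 min. Between successive times, LIF rose by 1.72 at 40 min relative to 20 min (adjusted p = 1.37e-06, limma). It fell by 0.82 at 240 min relative to 120 min (adjusted p = 0.00633) and by 0.89 at 480 min relative to 240 min (0.00315). In order of level, 60, 120 and 40 min came first and neighbours among them did not differ beyond the test (0.29 and 0.31, adjusted p = 0.447 and 0.288), then 240 min, below 40 min by 0.51 (0.0347), then 480 and 20 min, which were 0.32 apart (0.152), and then 0 min. The call at 20 min was lost when replicate 2 (adjusted p = 0.0554) or 3 (0.064) of 0 min or replicate 2 of 20 min (0.164) was left out, and the fall after 120 min was 0.66 without 120 min replicate 3 (0.0593). The 20 min call was lost as well without the filter, with a pseudocount of 64 and in a fit of only the 2 times compared. Taken singly, the 3 filtered LIF probesets changed by 0.19 to 1.15 at 20 min, with a median of 0.40, and 1 of them was called. The LIF changes of 40 to 480 min kept their call in every setting that measured LIF, and at 480 min the change was 0.56 with a pseudocount of 64 and 1.55 with a pseudocount of 1.

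**Figure D1:**
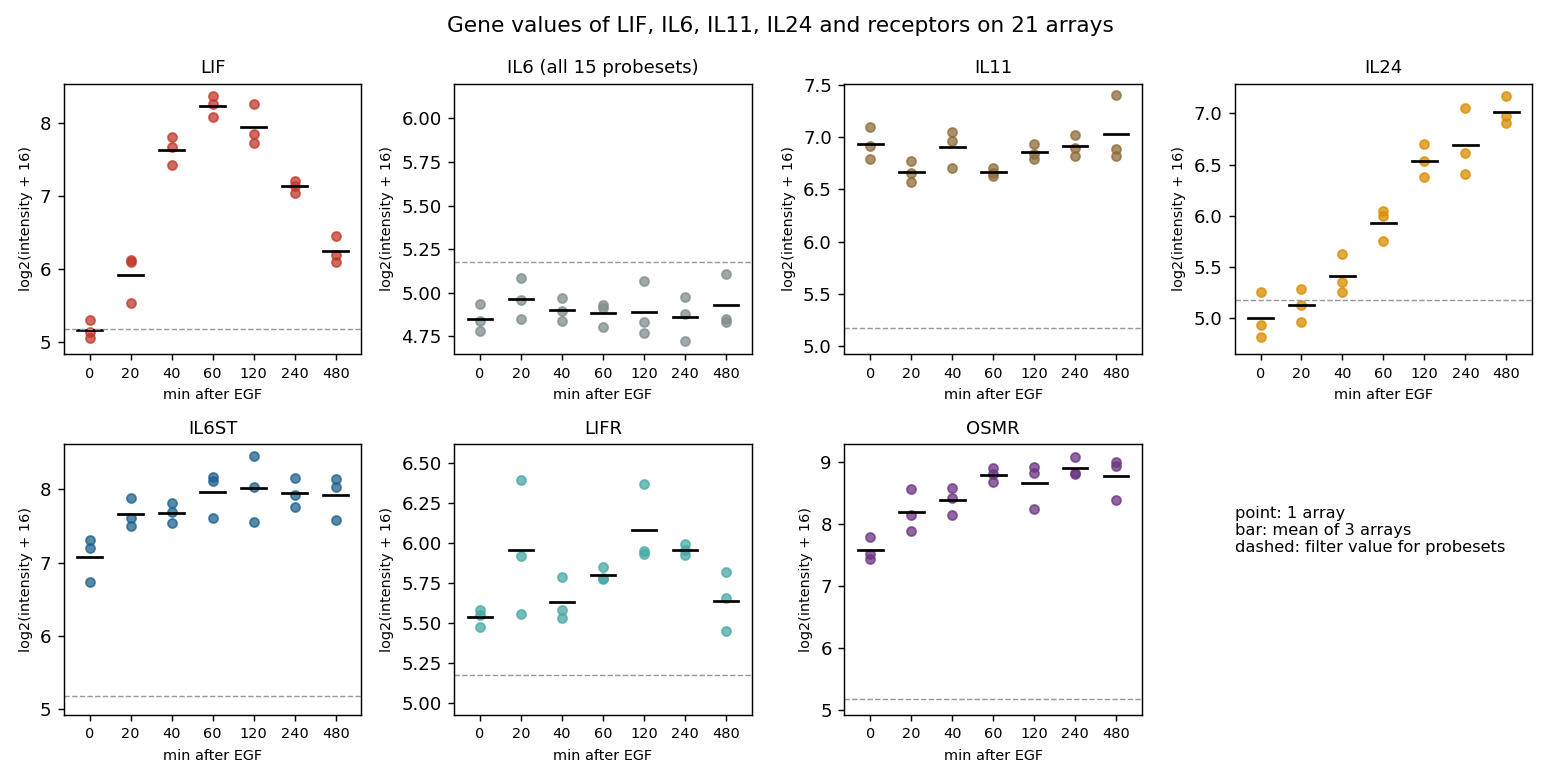
Gene values of the 7 members on each of 21 arrays, as log2(intensity + 16) against min after EGF, with points for single arrays, bars for the mean of 3 arrays and a dashed line at the filter value of 5.18; each panel has its own vertical range. LIF climbs to a mean of 8.24 at 60 min and comes down to 6.24 at 480 min, whereas IL24 reaches its highest mean, 7.02, at 480 min.

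IL24 was first called at 60 min and was highest at the last time. Its arrays gave 5.25, 4.93 and 4.82 at 0 min, 4.97, 5.28 and 5.13 at 20 min, and 5.36, 5.26 and 5.63 at 40 min. They gave 5.75, 6.0004 and 6.04 at 60 min, 6.38, 6.70 and 6.53 at 120 min, 6.41, 7.06 and 6.61 at 240 min, and 6.91, 6.97 and 7.17 at 480 min. From 40 min on, no array of an EGF time overlapped those of 0 min, where 2 of 3 values lay below the filter value. Against 0 min, IL24 did not pass at 20 min (0.13 ± 0.16, adjusted p = 0.702, limma) or at 40 min (0.41, 0.241), and rose by 0.93 at 60 min (0.00046), 1.54 at 120 min (3.39e-07), 1.69 at 240 min (7.36e-08) and 2.02 at 480 min (4.81e-09). The last value is 4.05-fold on this scale, with a 95% interval of 1.69 to 2.34 in log2 units. IL24 ranked 196 from the highest gene at 60 min, 70 at 120 min, 45 at 240 min and 28 at 480 min.

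The order of IL24 levels followed time, with 480 min first and 0 min last, but of its neighbouring times only 120 and 60 min differed past the test (0.61, adjusted p = 0.0312, limma). That call was lost when any of 5 of the 6 arrays of those times was left out (all but 120 min replicate 1), with changes of 0.52 to 0.66 and adjusted p of 0.0501 to 0.157. The calls at 60 to 480 min held in every setting that measured IL24. Their size depended on the pseudocount, and at 480 min it was 1.04 with a pseudocount of 64 and 2.77 with a pseudocount of 1. Without the filter, over all 13 probesets, the IL24 change at 480 min was 1.59. Taken singly, the 9 filtered IL24 probesets had a median change of 1.56 at 480 min. With the mean over probesets in place of the median, the 40 min change of 0.42 passed (adjusted p = 0.015).

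IL11 and IL6 gave no called change. IL11, a gp130 cytokine that binds its own receptor IL11RA, lay between 6.57 and 7.40 on all 21 arrays. Its mean was 6.66 ± 0.10 at 20 min and 6.66 ± 0.04 at 60 min, against 6.93 ± 0.15 at 0 min (SD, n = 3 each). The differences at 20 and 60 min, both -0.27, did not pass (adjusted p = 0.26 and 0.253, limma), and the 95% interval at 60 min ran from -0.55 to 0.00. The arrays of both times lay below those of 0 min, but the share of all genes that did so was not counted. At 480 min the difference was 0.10, with an interval of -0.18 to 0.37.

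IL6, the acute-phase cytokine after which the family is named, had only 2 of 15 probesets above the filter and so no value in the test of 16614 genes. Over all 15 probesets, IL6 values lay between 4.72 and 5.11 on the 21 arrays, below the filter value at every time. Its change in the fit without a filter was between 0.01 and 0.11 at the 6 times, with none called, and the 95% interval at 60 min was -0.18 to 0.25. In that fit 0.901%, 1.74%, 4.6%, 11.6%, 15.8% and 18% of 19426 genes were called at the 6 times in order. Probeset 2992593 of IL6 was bright, with means of 7.89 at 0 min, 8.83 at 60 min and 7.36 at 480 min, and was called at no time.

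**Figure D2:**
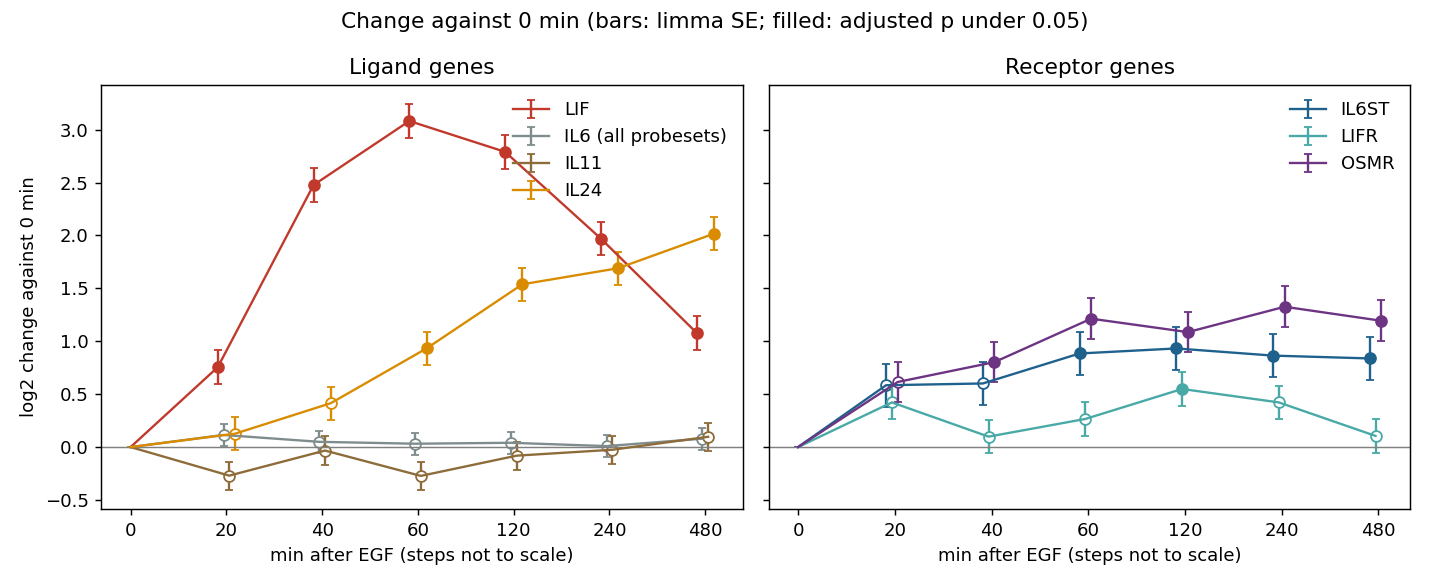
Log2 change of each gene against 0 min by time after EGF, with limma standard errors as bars and filled points where the adjusted p was under 0.05; ligand genes are at the left and receptor genes at the right, on one scale. LIF peaks at 3.08 at 60 min while IL24 keeps increasing to 2.02 at 480 min, and OSMR and IL6ST stay between 0.58 and 1.33 at all EGF times.

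Among the receptor chains, OSMR, the partner of gp130 for oncostatin M, rose most. OSMR gave 7.45, 7.51 and 7.79 at 0 min, 8.14, 8.56 and 7.89 at 20 min, and 8.59, 8.15 and 8.42 at 40 min. At the later times it gave 8.80, 8.68 and 8.91 at 60 min, 8.25, 8.83 and 8.93 at 120 min, 8.82, 8.81 and 9.09 at 240 min, and 8.94, 8.38 and 9.01 at 480 min. Every EGF array lay above every 0 min array. The change was 0.62 ± 0.19 at 20 min, which did not pass (adjusted p = 0.122, limma), and OSMR then rose by 0.80 at 40 min (0.0245), 1.21 at 60 min (0.000239), 1.09 at 120 min (0.000387), 1.33 at 240 min (2.88e-05) and 1.19 at 480 min (8.74e-05). No neighbouring times in its order of levels differed past the test. The call at 40 min was lost when replicate 1 (adjusted p = 0.122) or 2 (0.0899) of 0 min or replicate 1 (0.133) or 3 (0.0997) of 40 min was left out, and the change at 20 min passed without 20 min replicate 3 (0.77, 0.0352).

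IL6ST, the chain that all gp130 cytokines share, rose by less than 1 log2 unit and stayed up. Its values were 6.73, 7.19 and 7.31 at 0 min, 7.61, 7.87 and 7.50 at 20 min, and 7.81, 7.54 and 7.69 at 40 min. Later values were 8.11, 7.61 and 8.17 at 60 min, 7.56, 8.03 and 8.45 at 120 min, 7.76, 7.93 and 8.15 at 240 min, and 8.03, 7.59 and 8.13 at 480 min. All EGF arrays lay above the highest 0 min array, and the 3 arrays of 120 min spread the widest. Against 0 min, the IL6ST differences of 0.58 ± 0.20 at 20 min and 0.60 at 40 min did not pass (adjusted p = 0.153 and 0.168, limma). IL6ST rose by 0.88 at 60 min (0.0106), 0.93 at 120 min (0.0029), 0.86 at 240 min (0.00419) and 0.84 at 480 min (0.00464). These gene values exceed the typical change of a single probeset. Over the 27 filtered IL6ST probesets, the median change was 0.48 at 60 min, 0.63 at 120 min, 0.535 at 240 min and 0.56 at 480 min. The 60 min call was lost when replicate 1 of 0 min (adjusted p = 0.0806) or replicate 1 (0.0589) or 3 (0.0751) of 60 min was left out, and with the mean over probesets (0.49, 0.0864). With probesets kept only from the 75th percentile up, IL6ST was called at 480 min alone (0.0354).

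LIFR, the chain that binds LIF beside gp130, gave the smallest change of the 3 receptor genes at every time. It gave 5.58, 5.47 and 5.55 at 0 min, 5.92, 6.39 and 5.56 at 20 min, and 5.79, 5.53 and 5.58 at 40 min. It gave 5.77, 5.78 and 5.85 at 60 min, 5.93, 5.95 and 6.37 at 120 min, 5.99, 5.92 and 5.96 at 240 min, and 5.65, 5.45 and 5.82 at 480 min. The arrays of 60, 120 and 240 min all lay above those of 0 min, and those of 20, 40 and 480 min overlapped them. LIFR rose at 120 min (0.55 ± 0.16, adjusted p = 0.0209, limma) and passed at no other time, with 0.42 at 20 min (0.169), 0.10 at 40 min (0.865), 0.27 at 60 min (0.361), 0.42 at 240 min (0.064) and 0.11 at 480 min (0.704). The 120 min call was lost without 0 min replicate 2 (0.0675) or 120 min replicate 3 (0.41, 0.139), while leaving out 20 min replicate 3 gave a passing 0.62 at 20 min (0.0247). With probesets kept only from the 75th percentile up, LIFR at 60 min turned to -0.59 (0.0201). The moderated F-test over the 6 times passed for LIF (adjusted p = 5.67e-12), IL24 (1.48e-09), OSMR (0.000123) and IL6ST (0.0121) and not for LIFR (0.0566) or IL11 (0.189), against 27.5% of all genes tested.

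An array index was higher on average at every EGF time than at 0 min. It is the difference, on each array, between the log2 medians of probesets with 1 gene name and of those with none, and it averaged 1.31 ± 0.04 at 20 min, 1.27 ± 0.05 at 40 min, 1.31 ± 0.03 at 60 min, 1.32 ± 0.10 at 120 min, 1.297 ± 0.04 at 240 min and 1.31 ± 0.06 at 480 min, against 1.24 ± 0.02 at 0 min (SD, n = 3 each). With the index as a covariate in the limma fit, OSMR changed by 0.28 at 20 min (adjusted p = 0.365), 0.64 at 40 min (0.000625), 0.88 at 60 min (2.16e-05), 0.69 at 120 min (0.000323), 1.05 at 240 min (3.57e-07) and 0.88 at 480 min (4.95e-06). IL6ST then changed by 0.42 at 40 min, now called (0.0253), and by 0.51 at 60 min (0.00902), 0.50 at 120 min (0.00646), 0.56 at 240 min (0.000745) and 0.49 at 480 min (0.00274). Both genes kept the calls they had at these times, at smaller sizes. LIFR at 120 min was 0.30 and no longer called (0.149). LIF was little altered, at 2.98 at 60 min, although its 20 min change of 0.65 no longer passed (0.0647), and IL24 was 1.95 at 480 min.

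Counted together, 1 of the 6 tested members was called at 20 min (LIF), 2 at 40 min (LIF and OSMR), 4 at 60 min (LIF, IL24, OSMR and IL6ST), 5 at 120 min (those and LIFR), and 4 at 240 and at 480 min, all of them higher. Of the filtered probesets behind these values, some were below the filter value at 0 min and passed it through their values after EGF. These were 2 of 3 for LIF, 6 of 9 for IL24, 3 of 17 for LIFR and 1 of 26 for OSMR. In the fit without a filter, 0, 2, 4, 5, 4 and 4 of the 7 members were called at the 6 times in order. The shares of all 16614 genes called at these times, in either direction, were 0.981%, 2.23%, 5.8%, 14.4%, 19.7% and 22.6%. All 3 arrays lay above those of 0 min for 3 members at 20 min, 4 at 40 min, 5 at 60, 120 and 240 min and 4 at 480 min, against 11.1%, 9.43%, 15.1%, 17%, 23.1% and 21.6% of all genes. For 1 member, IL11, all 3 arrays lay below at 20 and at 60 min, a direction not counted over all genes. Between successive times, 1 member was called from 20 to 40 min (0.572% of genes), none from 40 to 60 min (0.229%), and 1 each from 60 to 120 min (3.49%), from 120 to 240 min (1.54%) and from 240 to 480 min (1.47%). From 40 to 60 min, 3 members had an unadjusted p under 0.05 (LIF, IL24 and OSMR), against 7.83% of all genes, and the LIF difference of 0.61 did not pass once adjusted (adjusted p = 0.166, limma).

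Single probesets show how evenly a gene's annotated parts responded. The probesets of 1 gene share the RNA of each array and are not replicates. Of the 90 member probesets that passed the filter, 3 were called higher at 20 min, 9 at 40 min, 29 at 60 min, 44 at 120 min, 40 at 240 min and 36 at 480 min, and none lower, against 0.491%, 1.45%, 4.04%, 10.1%, 13.9% and 16.6% of all filtered probesets called in either direction. Since the filter uses the mean over all arrays, it favours dim probesets that become bright after EGF, and the counts of single genes below are therefore over all their probesets, with p-values adjusted over all 354600. There, 3, 9, 30, 43, 42 and 38 of the 123 member probesets were called higher at the 6 times in order and none lower, against 0.361%, 1.07%, 2.81%, 7.13%, 9.89% and 12% of all probesets. OSMR had 4 of its 26 probesets called at 40 min, 21 at 60 min, 20 at 120 min and 23 at both 240 and 480 min. At 40 min, the median change of the 26 was 0.635. OSMR probesets 2807397 and 2807398 were highest at 40 min, with means of 7.96 and 9.635, against 6.77 and 7.83 at 120 min. LIF had 3 of 4 called at 40 to 240 min, with changes of 2.47 to 3.71 at 60 min for those 3, whereas probeset 3957172 stayed dim at 4.22 to 4.56 at all times. IL24 had 10 of 13 called at 120, 240 and 480 min, with changes of up to 2.91 at 480 min. Its probeset 2377047 had a mean of 5.45 at 480 min, against 5.53 at 0 min. IL6ST had at most 5 of 28 called, at 120 min, although 27 of the 28 changes were positive there, and LIFR had at most 4 of 28, also at 120 min. IL11 had 1 of 9 called higher at 120 min and IL6 none of 15 at any time.

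**Figure D3:**
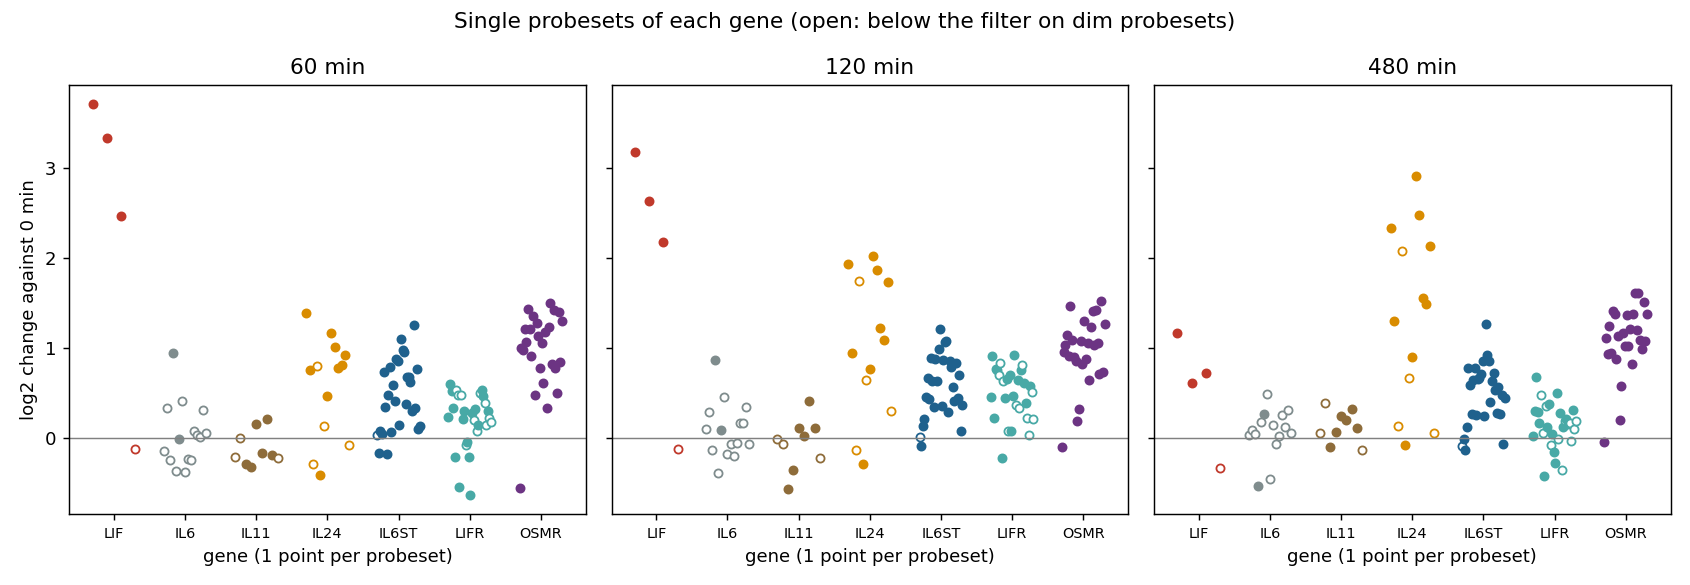
Log2 change of each single probeset against 0 min at 60, 120 and 480 min, grouped by gene, with open points for probesets below the filter value. The 3 filtered LIF probesets stand highest at 60 min (2.47 to 3.71), the IL24 probesets spread up to 2.91 at 480 min, and most OSMR probesets lie close together.

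Other ligands listed with the gp130 family, a list that includes the IL-12 family genes IL12A and IL23A, moved less than LIF. Of 10 listed genes 6 were measured, and 2 of them, CLCF1 and IL12A, were called higher at each time from 40 to 480 min, with none lower. The shares of all genes tested that were called higher were 0.897% at 20 min, 1.82% at 40 min, 4.82% at 60 min, 11.2% at 120 min, 13.5% at 240 min and 15.5% at 480 min. CLCF1, a cytokine that signals through the CNTF receptor with gp130 and LIFR, was higher by 0.48 ± 0.11 at 40 min, 0.64 at 60 min, 0.71 at 120 min (adjusted p = 7.35e-05, limma), 0.54 at 240 min and 0.47 at 480 min. IL12A, a subunit of IL-12 and of IL-35, was higher by 0.47 ± 0.10 at 40 min and 0.51 at 120 min (0.00101). Without the filter IL12A was called at 480 min alone, with 0.29 at 40 min (0.206), 0.18 at 60 min (0.341), 0.20 at 120 min (0.24) and 0.24 at 240 min (0.119). Its 60 min call, at 0.37, was lost as well with a pseudocount of 64 (0.0656), with only the 2 times compared (0.117) and without replicate 2 (0.107) or 3 (0.0568) of 0 min or replicate 1 (0.114) or 3 (0.134) of 60 min. At 40 min the calls of both genes were lost with only the 2 times compared (CLCF1 0.0738 and IL12A 0.0911) and when single arrays were left out, CLCF1 when replicate 1 of 0 min (0.082) or replicate 1 (0.0738) or 3 (0.0715) of 40 min was left out, and IL12A when replicate 2 of 0 min (0.0539) or replicate 3 of 40 min (0.0741) was. The median change of the 6 genes was 0.16 at 60 min and 0.12 at 120 min, against 0.03 and 0.04 over all genes tested.

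Among the other receptor chains listed with the family, which include IL12RB1 and IL12RB2, all 7 genes were measured and none was called higher at any time. Only IL11RA, the private chain of the IL11 receptor, was called lower, at 480 min (-0.36 ± 0.10, adjusted p = 0.0141, limma). That call was lost without 0 min replicate 1 (0.0578) or 480 min replicate 1 (0.0506), and with the filter at the 75th percentile (-0.13, 0.454). At 480 min, 22.6% of all genes tested were called in either direction. The median change of the 7 genes was -0.21 at 480 min, against 0.05 over all genes tested.

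Around IL24, a second cytokine of its family rose briefly and a shared receptor chain fell. IL20, a cytokine that binds the same IL20RB receptors, had arrays at 5.17, 5.38 and 5.56 at 0 min, 7.10, 6.87 and 6.88 at 40 min, 7.21, 6.90 and 7.15 at 60 min, and 5.46, 5.49 and 5.42 at 120 min. The arrays of 40 and 60 min stood clear of those of 0 min, and those of 120 min lay within their range. IL20 rose by 1.58 ± 0.13 at 40 min (adjusted p = 1.3e-08, limma) and by 1.72 at 60 min (3.01e-09), and its difference at 120 min was 0.09 (0.717). Its level at 0 min was near the filter value of 5.18, and the size of the rise depended on the setting. Over the 15 other settings that measured IL20, the change was 0.94 to 2.055 at 40 min and 1.04 to 2.205 at 60 min, always called. IL20RB, the chain common to the IL24 receptors, had arrays at 9.28, 9.14 and 9.21 at 480 min, against 9.87, 10.11 and 9.9998 at 0 min. These did not overlap, but the share of all genes that lay below 0 min in this way was not counted. IL20RB fell by 0.63 ± 0.10 at 240 min (9.88e-05, limma) and by 0.78 at 480 min (6.41e-06). Of the 7 measured genes of this list of 9, 1 was called higher at 40 and 60 min (IL20) and 1 lower at 240 and 480 min (IL20RB), and the other receptor genes IL20RA, IL22RA1 and IL10RB passed at no time. Of all genes tested, 2.23% and 5.8% were called at 40 and 60 min, and 19.7% and 22.6% at 240 and 480 min. The list's median change was 0.10 at 60 min and 0.11 at 480 min, against 0.03 and 0.05 over all genes tested.

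The JAK kinases were not called at any time, and 2 STAT genes were. Of 11 listed genes 10 were measured, with 1 higher and 1 lower at 120 and at 240 min and 1 lower at 480 min. Among all genes tested, 14.4%, 19.7% and 22.6% were called at these times, so the counts of this list were near or below those shares. STAT3, the main factor downstream of gp130, rose by 0.36 ± 0.10 at 120 min (adjusted p = 0.0171, limma) and 0.33 at 240 min (0.0216). STAT2, known from the interferon response, fell by 0.42 ± 0.13 at 120 min (0.0302), 0.69 at 240 min (0.000443) and 1.07 at 480 min (2.29e-06). The F-test over the 6 times did not pass for STAT3 (adjusted p = 0.0546). The STAT3 call at 120 min was lost with the array index as a covariate (0.32, 0.0527), with only the 2 times compared (0.148) and without 0 min replicate 1 (0.104) or 120 min replicate 3 (0.0887). Its call at 240 min was lost with only the 2 times compared (0.0565) and without 0 min replicate 1 (0.119) or 240 min replicate 3 (0.0806). The STAT2 call at 120 min was lost with only the 2 times compared (0.147) and without 0 min replicate 1 (0.167) or 3 (0.0587) or without 120 min replicate 1 (0.121) or 2 (0.0691), and its later calls held. The list's median change was -0.03 at 120 min and -0.07 at 480 min, against 0.04 and 0.05 over all genes tested.

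Of the 16 feedback inhibitors of JAK-STAT signalling, all measured, none was called at 20 or 40 min. At 60 min 3 were higher, at 120 min 5, and at 240 and 480 min 3 were higher and 1 lower. The 4 of 16 called at 240 and at 480 min were near the 19.7% and 22.6% of all genes called at these times. At 60 and 120 min, 4.82% and 11.2% of all genes tested were called higher. Recomputed in 16 other settings, SOCS4 kept its call in 10 at 60 min and in 9 at 240 min. At 120 min, SOCS2 kept its call in 10 and PTPN1 in 11. CISH kept its calls at 60 and 120 min in 15 each, and lost both with the filter at the 75th percentile. SOCS3, the inhibitor that acts on gp130 itself, rose at 60 min (0.51 ± 0.11, adjusted p = 0.00748, limma) and was -0.06 at 120 min (0.787), and the 60 min change of 0.52 was not called with a pseudocount of 1 (0.223), nor was 0.34 with the filter at the 75th percentile (0.0609). SOCS6 was higher by 1.05 ± 0.14 at 120 min (1.05e-05) and 0.58 at 480 min (0.0036). SOCS2 was higher by 0.89 ± 0.11 at 240 min (4.04e-06) and 0.88 at 480 min (3.99e-06). PTPN6, the phosphatase SHP-1, fell by 0.61 ± 0.11 at 240 min (0.00021) and by 0.59 at 480 min (0.000283). The median change of the list was 0.12 at 60 min and 0.23 at 480 min, against 0.03 and 0.05 over all genes tested.

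Known target genes of STAT3 were called higher from the first time on. Of 18 listed genes 15 were measured, with 4 higher at 20 min, 6 at 40 min, 9 at 60 min, 7 at 120 and at 240 min and 5 at 480 min, and none lower at any time. Among all genes tested, the shares called higher at these times were 0.897%, 1.82%, 4.82%, 11.2%, 13.5% and 15.5%. Recomputed in 16 other settings, some of the list's calls were lost. BCL2L1 kept its call in 8 at 20 min and in 13 at 40 min. IRF1 at 40 min and CEBPB at 60 min kept theirs in 11 each. BCL3 held in 8 at 120 min and 11 at 240 min, and JUNB in 14 at 120 min and 8 at 240 min. SOCS3 stands in this list as well as among the inhibitors, and several of the genes are also known as direct targets of other growth factor pathways. JUNB, a subunit of AP-1, rose by 1.24 ± 0.12 at 20 min (adjusted p = 6.74e-07, limma) and by 1.81 at 60 min (5.84e-10), with 0.43 at 480 min (0.0117). PIM1, a survival kinase, rose by 0.89 ± 0.12 at 20 min (0.000146) and 1.87 at 60 min (5.27e-10), and was 0.03 and not called at 480 min. MCL1, an anti-apoptotic protein of the BCL2 family, was higher at all 6 times, by 1.05 ± 0.13 at 20 min (3.27e-05), 1.42 at 120 min (6.83e-08) and 1.21 at 480 min (5.07e-07). CCND1, the G1 cyclin D1, rose late, by 0.56 ± 0.11 at 240 min (0.00128) and 0.92 at 480 min (4.21e-06). The list's median change was 0.19 at 20 min, 0.55 at 60 min and 0.19 at 480 min, against 0.02, 0.03 and 0.05 over all genes tested.

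**Figure D4:**
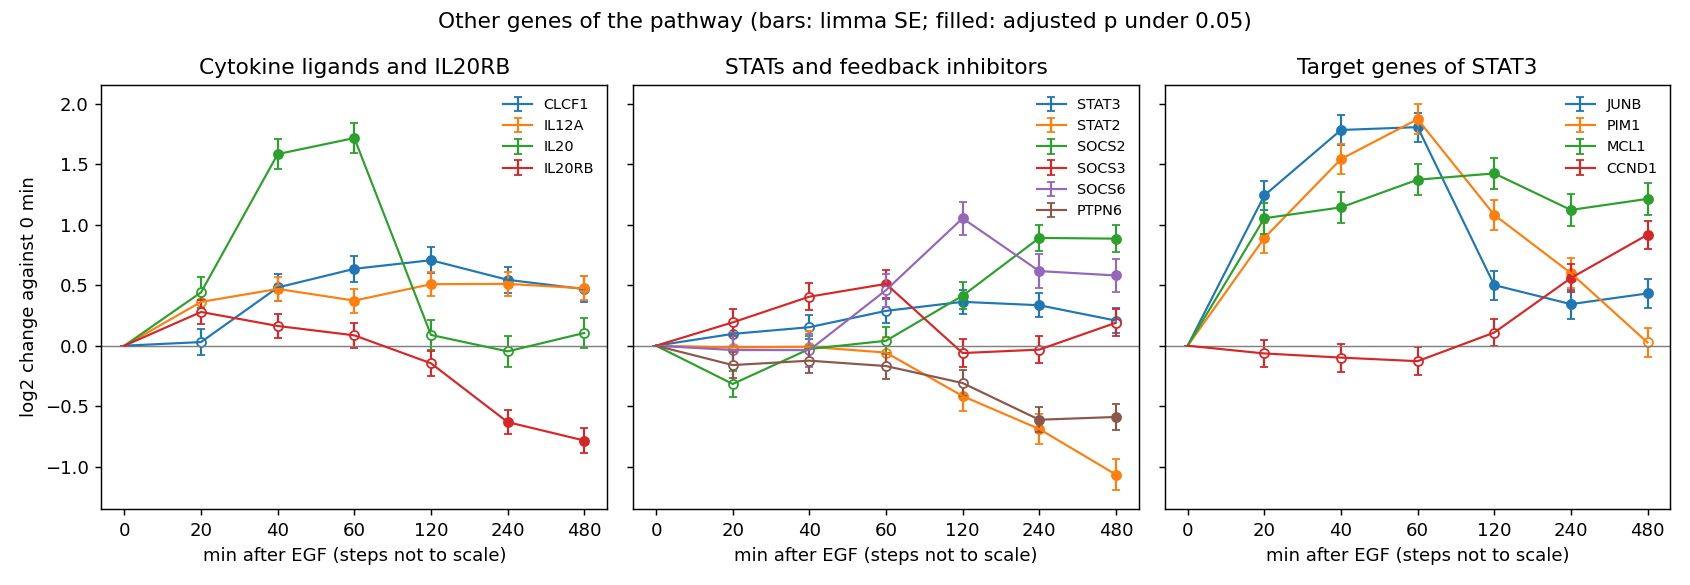
Log2 change against 0 min of other genes of the pathway, with limma standard errors and filled points where the adjusted p was under 0.05. IL20 stands at 1.58 and 1.72 at 40 and 60 min and at 0.09 at 120 min, STAT2 comes down to -1.07 at 480 min, and JUNB and PIM1 are highest at 60 min.

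The genes whose 7 time means were most like those of LIF, among 670 genes that passed the F-test with a largest change of at least 1, were HAS3 (Pearson r = 0.983), ZNG1F (0.976), FOSL1 (0.975), PLK3 (0.972) and FAM83G (0.968). HAS3, a hyaluronan synthase, was highest at 120 min (2.34), and FOSL1, the AP-1 subunit FRA1, at 60 min (2.82). PLK3, a polo-like kinase, was highest at 60 min (1.38), and FAM83G at 120 min (1.11). ZNG1F, highest at 60 min (1.18), belongs to a family of near-identical copies, so its probesets may share signal with the others and its value is uncertain. The genes most like IL24 were NIBAN2 (0.995), PTHLH (0.995), TMC7 (0.992), CYRIB (0.992) and CD276 (0.991), all highest at 480 min. PTHLH, which encodes a secreted parathyroid hormone-related protein, was higher by 2.04 at 480 min, NIBAN2 by 1.43, TMC7 by 1.41, CD276, the immune checkpoint molecule B7-H3, by 1.13, and CYRIB, a regulator of Rac signalling, by 1.09. These correlations cover 7 time means from the same 21 arrays and are a description.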

How the data were processed

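The 21 arrays of MCF10A cells (7 times, 3 arrays each) were grouped by the time in their labels. The authors deposited a table of linear intensity values for 1384231 probesets. The tools listed in the submitters' processing notes are PLIER and, for software, Affymetrix Expression Console 1.1. No settings, background correction or genome build of the array are stated there, and detection calls were not part of the work. Gene names come from the platform annotation, with symbols brought up to date through the RefSeq genes of GRCh38.p14 (16426 of 19497 symbols were current, 2950 were replaced and 121 left unchanged).

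The deposited intensities were turned into log2(intensity + 16), which understates the change of dim genes. Probesets were kept if their mean over the 21 arrays reached the median of all probeset means. Each gene was summarised by the median of its kept probesets, of which it needed 3. A limma 3.58.1 model (lmFit, eBayes, R 4.3.3, with version 1.17.8 of data.table) with a mean per time gave 14 residual and 7.08 prior degrees of freedom. Tests were two-sided, and p-values were adjusted by Benjamini-Hochberg over all genes within a contrast, with calls under 0.05. On data simulated for 120 min against 0 min over 16614 genes, the fit called 99 of 100 genes changed by 1 log2 unit, 100 of 100 changed by 2, and 13 of 16414 unchanged genes. The simulated noise was normal and independent between genes and arrays. It held no shift shared by the genes of an array, such as the array index shows, so these counts do not cover that case.

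Members, gene lists and marker lists were chosen with earlier results of these data known. The genes named were the 7 members, the called genes of each list (the 4 with the smallest F-test p where more than 4 were called), the 5 genes most like LIF and like IL24, and the highest and lowest gene of the marker lists. Other called genes of a list were named where their calls were lost in another setting. Not measured were OSM, IL31, IL22, IL26, MYC and FGB, with fewer than 3 kept probesets, and CNTF and SAA1, with no single-gene probeset. Other listed genes without a value are not reported here.

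Each result was recomputed after normalising by quantiles or centring by medians, with a pseudocount of 1 or of 64, without the probeset filter or with one at the 75th percentile, with probesets averaged, with the replicate letter as a block, with the array index as a covariate, with a fit of only the 2 times compared, and without each array in turn.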

Additional observations from a re-analysis of the deposited data

Results flagged for a closer look

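A change between successive times passed the test for members in 4 cases. LIF was higher by 1.72 ± 0.16 (limma standard error) at 40 min than at 20 min, with an adjusted p of 1.37e-06, and all 3 arrays of 40 min lay above those of 20 min. LIF then changed by -0.82 ± 0.16 at 240 min relative to 120 min (adjusted p = 0.00633, limma), and the further change of -0.89 ± 0.16 at 480 min relative to 240 min also passed (0.00315), each time with all 3 later arrays below all 3 earlier ones. IL24 was higher by 0.61 ± 0.16 at 120 min than at 60 min (adjusted p = 0.0312, limma), again without overlap between the arrays. The share of all genes without overlap between successive times was not counted. The IL24 change and the LIF change from 120 to 240 min depended on single arrays, as given in the report. Groups of 3 arrays are too small for a test of single outlying arrays.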

How the results depend on the processing

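Across the values of members under the alternatives other than leaving out an array, 596 kept their direction and their side of the threshold, 12 lost a call, 8 gained one, 21 uncalled values changed sign, and LIFR at 60 min reversed to -0.59 with the filter at the 75th percentile. Members called at 20 min went to 0, in place of 1, with a pseudocount of 64 (LIF adjusted p = 0.109, limma), no filter (0.164), the filter at the 75th percentile, the index covariate and only the 2 times compared (0.124). The filter at the 75th percentile left only 4 members measured, without LIF, IL24 and IL6, and called 0 at 40 min, 2 at 60 and at 120 min, 1 at 240 min, 2 at 480 min, and 0 from 20 to 40, 120 to 240 and 240 to 480 min. From 60 to 120 min, members called were 0 with a pseudocount of 1 or only the 2 times compared (IL24 adjusted p = 0.0623 and 0.0626), and 2 with the mean over probesets, which also gave 2 from 240 to 480 min. LIFR at 240 min was called with a pseudocount of 1 (0.64), with the mean over probesets (0.39) and with only the 2 times compared (0.42). Leaving out 1 array gave 0 to 3 members called at 20 min, 1 to 2 at 40 min, 3 to 4 at 60 min, 4 to 5 at 120 min, 4 at 240 and 480 min, 0 to 1 from 60 to 120 min and from 120 to 240 min, and 1 from 20 to 40 and from 240 to 480 min.

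Of the 60 measured genes of the pathway lists, 4, 9, 14, 16, 16 and 14 were called over the 6 times, against 0.981%, 2.23%, 5.8%, 14.4%, 19.7% and 22.6% of all genes. With only the 2 times compared they were 10 at 120 min, 2 from 20 to 40 min (4 in the fit of all arrays), 3 from 60 to 120 min (7) and 0 from 120 to 240 min (2). With the filter at the 75th percentile they were 5 at 40 min and 8 at 60 min. From 120 to 240 min they were 4 with a pseudocount of 64 or the index covariate and 1 with no filter, from 240 to 480 min 2 with the index covariate (1), and from 40 to 60 min 1 with the mean over probesets (0). Leaving out 1 array gave 3 to 7 pathway list genes at 20 min, 7 to 9 at 40 min, 11 to 14 at 60 min, 11 to 15 at 120 min, 12 to 17 at 240 min, 13 to 16 at 480 min, 1 to 5 from 20 to 40 min, 5 to 8 from 60 to 120 min, 0 to 2 from 120 to 240 min and 0 to 1 from 240 to 480 min. The causes were not tested.

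Deviations from the time means of arrays with the same replicate letter correlated at -0.54 to 0.56 (median -0.01), 19 of 63 such pairs were above 0.1, and 11 of 21 arrays correlated best with an array of their own letter. Arrays with different letters had a median of 0.0075. Not every same-letter pair was above 0.1, so the letter was taken as a name only. That bar asks for all 63 pairs, so missing it does not exclude a pairing by letter. With the letter as a replicate block, members called stayed at 1, 2, 4, 5, 4 and 4 over the 6 times, and LIF at 20 min was 0.76 (adjusted p = 0.0256, limma). Among the members, low signal limits LIF, IL24 and IL6, whose levels at 0 min lay near or below the filter value.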
